A study of Mus musculus with 2 samples.

Results

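The Foxp3 locus was described in ATAC-seq peak lists of primary T cells from C57BL/6NJ mice. ATAC-seq marks accessible chromatin: the Tn5 transposase cuts and tags DNA where nucleosomes leave it free. The members were all deposited peaks with any base in the annotated Foxp3 gene body or in the 50 kb on each side of it, on mm10 chromosome X from 7523644 to 7645245. This 122 kb window held 10 of the 78016 regions of replicate 1 and 10 of the 74653 regions of replicate 2 on the standard chromosomes. All 10 overlapped between the libraries, so they make up 10 of the 66847 regions that both libraries shared. Both libraries belong to 1 group with no second condition, and the labels give neither treatment, age nor sex. The labels number the libraries as biological replicates 1 and 2 but give both the same donor record, so the spread between them may be technical. The linked protocol is about how CD4+ T cells are made to differentiate. Names of the peaks include the words Th0 and ASTARR insert and a time in hours, none of which any source explains. No subset is stated and the share of regulatory T cells is not given. As a check of the label, 8 of 9 matched T-cell markers had a promoter region in both libraries, against 1 of 6 B-cell markers (Pax5), 2 of 6 myeloid markers (Cd68 and Mpo) and 0 of 4 hepatocyte markers. Over all protein-coding genes the share was 62.8%. Cd247 was the T-cell marker without one.

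Foxp3 encodes the forkhead factor that defines regulatory T cells, the lymphocytes that restrain immune responses. Its transcription is known to depend on a promoter that is weak alone and on conserved noncoding sequences (CNS) in and before the gene. CNS1 is known for induction of Foxp3 outside the thymus and holds NFAT and SMAD sites. CNS2, also called the regulatory T-cell-specific demethylated region, keeps Foxp3 on in dividing cells and binds CREB, STAT5 and RUNX factors when its CpGs are unmethylated. CNS3 acts as a pioneer element for the start of Foxp3 transcription and is known to bind c-Rel, while CNS0 lies upstream and is bound by Satb1 in thymic precursors.

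Positions are given as distances from the main Foxp3 start, the start of the RefSeq Select transcript at chromosome X 7579676 on the plus strand. Its first exon is noncoding, and its first coding exon runs from 6.66 to 6.88 kb. The elements were placed by their textbook distances from this start, which are approximate and come from no deposited file: CNS0 at -9.0 to -7.5 kb, an upstream enhancer at -6.0 to -5.4 kb, the promoter at -0.5 to 0.2 kb, CNS1 at 2.0 to 2.7 kb, CNS2 at 4.2 to 4.8 kb and CNS3 at 6.9 to 7.1 kb. The sequence bears on the placement of CNS2. In windows of 600 bp along the first intron, 5.96 kb long, the CpG count had a median of 5 and its highest value, 14, in windows centred from 4.31 to 4.42 kb, inside the CNS2 range.

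Of the 6 elements, 3 held a region in both libraries (the upstream enhancer, CNS1 and CNS3) and 3 held none in either (CNS0, the promoter and CNS2). The upstream enhancer range lies inside the first exon of the neighbouring gene Ppp1r3f (-6428 to -5393 bp) and is coding at its middle. Its region had both summits outside the range, while the summits at CNS1 and CNS3 lay inside theirs. The sequences of the intronic elements and the promoter are shown because the finding turns on which of them were accessible. All are from the plus strand of the RefSeq copy of the mm10 assembly (GRCm38.p6). The first is part of the promoter, -330 to -110 bp (chrX:7579346-7579566), where no region was listed. The next are the 200 bp around the summit of the CNS1 region (chrX:7581752-7581951) and of the CNS3 region (chrX:7586647-7586846). Capitals in these 3 mark matches to the consensus sequences given further on. The last is the most CpG-rich 250 bp of CNS2 (chrX:7583986-7584235), where no region was listed, with its 10 CpGs in capitals.
Promoter: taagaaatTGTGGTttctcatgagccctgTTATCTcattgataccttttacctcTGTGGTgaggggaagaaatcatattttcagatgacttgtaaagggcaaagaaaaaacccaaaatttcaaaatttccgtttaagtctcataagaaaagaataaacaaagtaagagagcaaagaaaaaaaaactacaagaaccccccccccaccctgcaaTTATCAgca
CNS1: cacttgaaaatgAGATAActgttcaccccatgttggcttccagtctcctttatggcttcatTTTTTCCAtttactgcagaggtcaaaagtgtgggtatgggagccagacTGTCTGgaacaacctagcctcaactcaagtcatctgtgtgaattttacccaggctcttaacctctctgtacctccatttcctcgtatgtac
CNS3: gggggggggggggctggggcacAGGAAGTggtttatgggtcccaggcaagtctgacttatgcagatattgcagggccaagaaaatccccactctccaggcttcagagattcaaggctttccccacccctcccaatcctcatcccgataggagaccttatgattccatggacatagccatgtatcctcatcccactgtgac
CNS2: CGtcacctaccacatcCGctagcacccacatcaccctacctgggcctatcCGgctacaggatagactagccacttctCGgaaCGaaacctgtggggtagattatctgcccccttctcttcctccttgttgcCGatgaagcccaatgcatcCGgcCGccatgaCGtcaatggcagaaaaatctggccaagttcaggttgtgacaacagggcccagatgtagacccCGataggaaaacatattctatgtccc

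**Figure D1:**
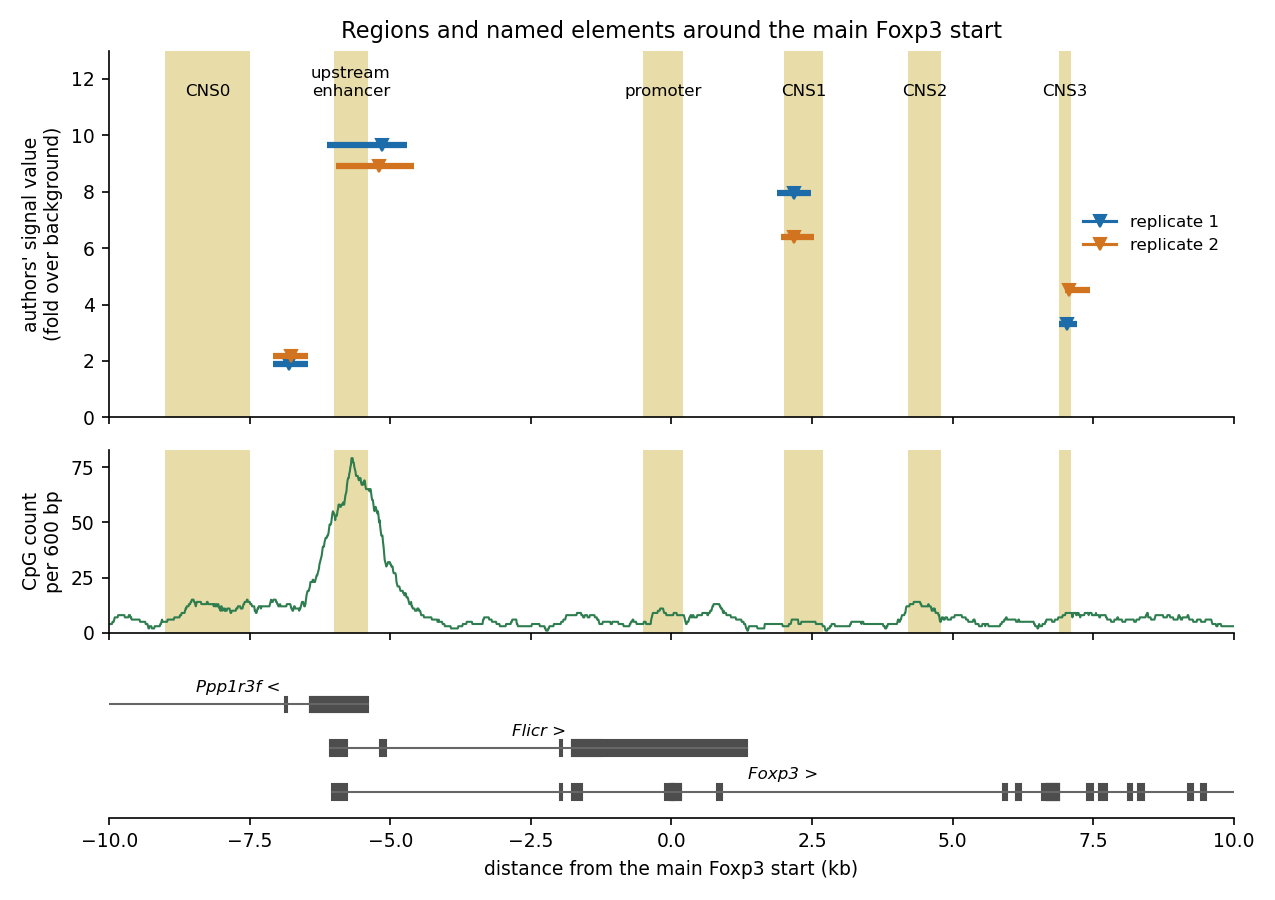
Top, regions of replicate 1 (blue) and replicate 2 (orange) from 10 kb before to 10 kb after the main Foxp3 start, as bars from region start to end at the height of the authors' signal, with a triangle at each summit and the element ranges shaded. Middle, CpG count in sliding windows of 600 bp, and bottom, exons of annotated transcripts. The promoter and CNS2 ranges hold no bar, CNS1 holds both summits at 2.18 kb, and the highest bars lie over the CpG peak in the first exon of Ppp1r3f.

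The main Foxp3 start had no accessible region in either library. The nearest region began 1869 bp downstream of it in replicate 1 and 1937 bp downstream in replicate 2. No region lay within 1000 bp of the starts at -0.11, -0.01 and 0.81 kb, which other annotated transcripts use. The promoter range was 1.67 kb from the nearest region in replicate 1 and 1.74 kb in replicate 2. The depth of the libraries is unknown, so a site without a listed region may be closed or may lie under the caller's threshold. The lowest −log10 q listed anywhere was 1.02 (replicate 1) and 1.01 (replicate 2).

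By a looser and common definition, a summit within 1000 bp of any annotated protein-coding start, Foxp3 did count as having an accessible promoter, as did 62.8% of 21853 protein-coding genes and 44.1% of the 948 on chromosome X. The strongest region behind that call lay at -5.14 kb in replicate 1 and -5.21 kb in replicate 2. It qualified through a single annotated transcript, which starts at -6.03 kb and which the annotation marks as not supported in this organism. The same region covers the start of Ppp1r3f, which encodes a regulatory subunit of protein phosphatase 1 and runs the other way. In replicate 1 it also covers the start of Flicr, a noncoding RNA known to lower Foxp3 expression, which lies just before the region's edge in replicate 2. By its strongest annotated start, Foxp3 stood at the 33.7th percentile of promoter signal among the genes called, whose median was 11.2. At RefSeq Select starts alone, 62.3% of the 20296 genes that have one had a region in both libraries, and 46.8% of the 847 on chromosome X, but Foxp3 had none. Foxp3 was thus 1 of 712 genes, 5.36% of the 13292 genes with a Select start that were called at any start, whose call came from another start. Within the Select transcript itself Foxp3 held 2 shared regions, those at CNS1 and CNS3. Of the 7654 genes with no region at the Select start, 28.5% had at least 1 in the transcript and 13.8% had 2 or more.

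CNS1 was the strongest accessible site inside the main transcript. Its region ran from 7581545 to 7582160 in replicate 1 and from 7581613 to 7582215 in replicate 2, and the summit lay on the same base, 7581852 (2.18 kb), in both. The signal in the seventh column, which is taken here as a fold over the local background, was 7.94 in replicate 1 and 6.39 in replicate 2 (7.17 ± 1.10, SD, n = 2). The ninth column, −log10 q, held 27.3 and 16.1. This put the region near the middle of its library, at the 60.8th percentile of signal in replicate 1 and the 49.4th in replicate 2. It covered 69.2% of the CNS1 range in replicate 1 and 77.0% in replicate 2, lying within the first intron. The 200 bp around its summit held 1 CpG, against a median of 3 in all shared regions.

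In the CNS1 sequence the longest run of capitals, at 2137 bp, is a pair of overlapping NFAT matches (the letters TGGAAAA, with GGAAAAA and also GGAAAAT counted, on either strand), and the capitals at 2185 bp are a SMAD match (GTCTAGAC or CAGACA). The summit at 2176 bp lay between them. NFAT matches were present in 200 bp around 10.4% of all shared summits and SMAD matches around 18.1%. The remaining capitals are a GATA match (AGATAA or TGATAA), found around 12.8% of summits. These are matches of letters and show no binding.

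CNS3 was accessible more weakly, in the intron after the first coding exon. The region ran from 7586579 to 7586890 in replicate 1 and from 7586677 to 7587115 in replicate 2, with summits at 7.04 and 7.07 kb. Its signal was 3.31 in replicate 1 and 4.52 in replicate 2 (3.91 ± 0.854, SD, n = 2), and its −log10 q was 4.57 and 7.75. Only 14.0% of the regions of replicate 1 and 29.4% of those of replicate 2 had a lower signal. The libraries overlapped by 214 bp, which is 68.6% of the replicate 1 region and 48.7% of the replicate 2 region, the smallest overlap of the 10 members in base pairs. With −log10 q of at least 5, with the 50000 strongest regions of each library, or with an overlap of at least 50% of both regions, CNS3 no longer counted, and 2 elements remained. An ETS match (AGGAAGT or CGGAAGT), present around 12.8% of shared summits, is the capital run at 6993 bp in the printed sequence. Its summit also fell within 1000 bp of a pair of annotated Foxp3 starts at 6.60 and 6.68 kb, next to the first coding exon.

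CNS2, between these 2 regions, had no region in either library. The nearest one was the CNS1 region, 1.72 kb away in replicate 1 and 1.66 kb in replicate 2, and no region was listed over the 4.36 kb from the CNS1 region to the CNS3 region. The printed stretch holds a full CRE (TGACGTCA) at 4469 bp, the CREB consensus, which is present (as TGACGTCA or TGACGTAA) around 1.08% of shared summits. It also holds a STAT match (TTCNNNGAA) at 4383 bp and a RUNX match (TGTGGT or TGCGGT) at 4318 bp, found around 8.13% and 23.9% of shared summits. A GATA match lies at 4410 bp, with a share of 12.8%. These shares are for 200 bp around summits, while the printed stretch is 250 bp long and was chosen for its CpGs. The whole CNS2 range of 601 bp has 12 CpGs, or 2.00 per 100 bp, against 0.713 in CNS1, 0.995 in CNS3, 1.57 in the promoter, 1.93 in CNS0 and 12.8 in the upstream enhancer range. The promoter stretch without a region holds 2 RUNX matches, at -322 and -276 bp, and 2 GATA matches, at -301 and -118 bp.

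A weak region, such as that at CNS3, can come from a few cells with open chromatin or from slight opening in many, and peak lists of bulk cells cannot tell these apart.

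The strongest region near the gene was the one at -5 kb, over the upstream enhancer range. It spanned 7573559 to 7574970 in replicate 1 and 7573709 to 7575104 in replicate 2, and was the widest of the 10, at 1412 and 1396 bp. The signal was 9.65 and 8.93 (9.29 ± 0.506, SD, n = 2) and the −log10 q was 240 and 158. Its −log10 q stood higher in its library, at the 92.7th and 91.4th percentiles, than its signal, at the 71.6th and 68.5th. It covered 100% of the enhancer range in replicate 1 and 94.5% in replicate 2, but both summits lay outside that range, 248 and 178 bp before the Ppp1r3f start. The region of replicate 1 was 65.5% GC with 119 CpGs, and that of replicate 2 was 63.1% GC with 112. A shared position does not tell whether the region serves Foxp3, Flicr or Ppp1r3f. The sequence around the summit of replicate 1 (chrX:7574471-7574590, plus strand, capitals a GATA match), which leaves out the replicate 2 summit at 7574461, is shown because this region gave Foxp3 its highest promoter value under the looser definition.
Region at -5 kb: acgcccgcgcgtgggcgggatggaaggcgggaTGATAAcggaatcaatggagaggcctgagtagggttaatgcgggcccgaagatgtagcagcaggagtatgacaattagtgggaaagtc

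CNS0 held no region, and a weak one lay 411 bp beyond its edge in replicate 1 and 412 bp beyond it in replicate 2. That region, at -6.81 kb and -6.77 kb in an intron of Ppp1r3f, had a signal of 1.88 in replicate 1 and 2.18 in replicate 2 (2.03 ± 0.216, SD, n = 2), below all but 0.510% and 1.05% of the regions of its library. Its −log10 q was 5.21 and 6.79. Its summit also lay 24 bp (replicate 1) and 63 bp (replicate 2) from the start of an annotated Ppp1r3f transcript whose 5′ end the annotation marks as incomplete. The libraries placed it alike, from 7572587 and 7572588 to 7573207. When the element ranges were widened by 0.5 kb on each side, CNS0 counted through this region and 4 of the 6 elements were accessible, while the promoter and CNS2 still were not. In each library alone the same 3 elements held a region as in both.

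The remaining members were promoters of neighbouring genes and sites inside those genes. Downstream, the region at the Ccdc22 start, a gene for a subunit of an endosomal sorting complex, had the highest signal of the window. In −log10 q this region came after the one at -5 kb (240 in replicate 1 and 158 in replicate 2). It ran from 7604834 to 7606027 in replicate 1 and from 7604998 to 7605991 in replicate 2, with a signal of 14.8 and 13.6 (14.2 ± 0.860, SD, n = 2) and a −log10 q of 102 and 69.7. The region at the start of Syp, which encodes synaptophysin of synaptic vesicles, ran from 7638240 to 7638968 and from 7638335 to 7638956. Its signal was 12.3 and 11.9 (12.1 ± 0.239, SD, n = 2), its −log10 q was 64.2 and 44.9, and its summit, 7638709, was the same base in both libraries. Cacna1f, the calcium channel gene of the retina between them, had no promoter region in either library.

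Inside Cacna1f, a region at 38.68 and 38.73 kb had a signal of 7.12 in replicate 1 and 7.85 in replicate 2 (7.48 ± 0.519, SD, n = 2). It ran from 7617941 to 7618676 and from 7618150 to 7618955, with a −log10 q of 22.6 and 21.4. A weaker one, with its summit in coding sequence at 31.14 kb in replicate 1 and in the intron beside it at 31.13 kb in replicate 2, ran from 7610406 to 7610865 and from 7610387 to 7610998. Its signal was 3.64 and 4.46 (4.05 ± 0.576, SD, n = 2) with a −log10 q of 5.80 and 7.31. Upstream, in Ppp1r3f introns, the region at -14.10 and -14.12 kb ran from 7565435 to 7565817 and from 7565440 to 7565904. Its signal was 4.76 and 5.42 (5.09 ± 0.465, SD, n = 2) and its −log10 q was 20.9 and 20.4. An AP-1 match (TGACTCA or TGAGTCA) lay at its summit, the only one among the 10 members, where 20.6% of shared regions had one. The region at -12.03 and -12.59 kb, from 7567140 to 7567701 and from 7566961 to 7567519, had 2.07 and 2.33 (2.20 ± 0.185, SD, n = 2) with a −log10 q of 3.31 and 3.20. It was the least alike in position, with summits 561 bp apart, while the other 9 pairs of summits lay at most 70 bp apart.

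**Figure D2:**
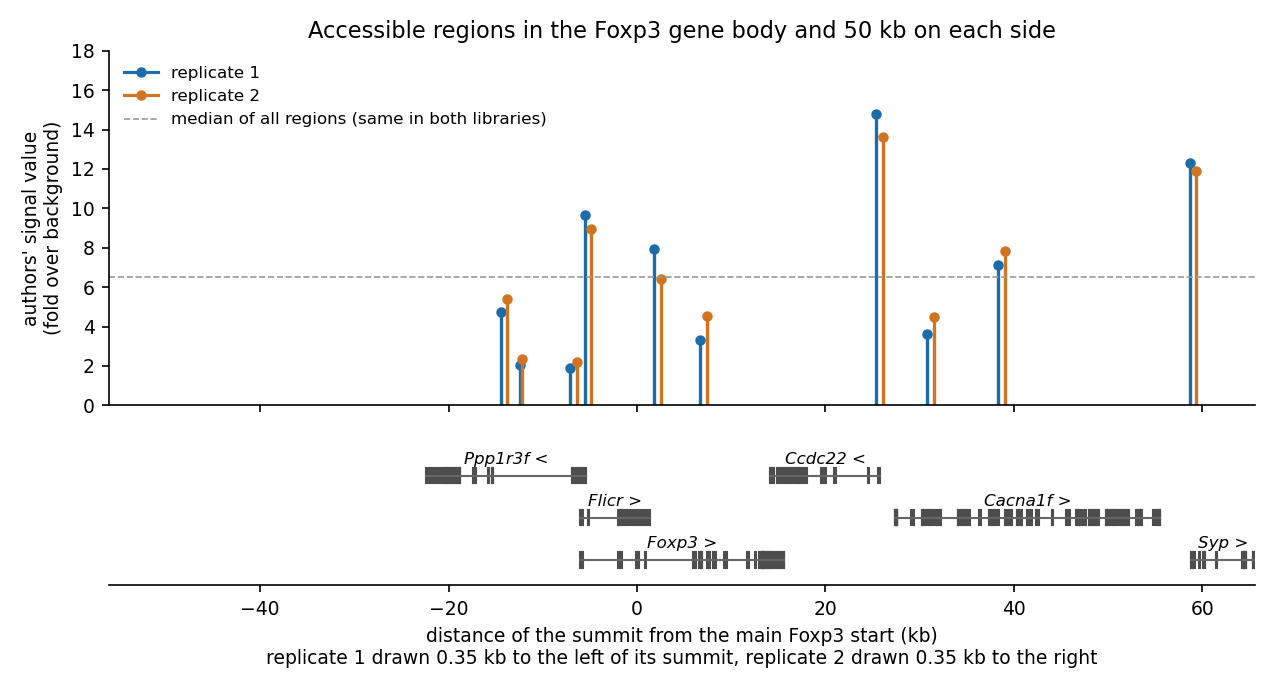
Authors' signal at the summit of each region in the window, for replicate 1 (blue) and replicate 2 (orange), against distance from the main Foxp3 start in kb, above the exons of the annotated genes (the arrow heads give the strand). The highest pair, 14.8 and 13.6, is at Ccdc22, no region lies in the first 41.8 kb of the window, and the dashed line is the library median of 6.50.

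Accessible regions were unevenly spread over the locus. The first 41.8 kb of the window, where the annotation has 2 pseudogenes, a small nucleolar RNA and the ends of Ppp1r3f and of the long transcript Gm36995, held none. None lay in the last 8.13 kb of Foxp3, which holds the exons of the forkhead domain, nor over the 17.7 kb from the CNS3 region to the Ccdc22 promoter. Of the 10 members, 3 overlapped the annotated gene body, 3 lay before it and 4 after it. Just outside the window, the next shared region downstream began 3.19 kb past its edge, near Prickle3 (signal 14.4 and 14.1), and the next upstream ended 49.3 kb before it, near Usp27x (6.79 and 5.73).

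In strength the members ranged widely but alike in both libraries. Of the 10, 4 were above the library's median signal of 6.50 in both libraries and 5 below it in both, and CNS1 was above it in replicate 1 alone. The signal was higher in replicate 1 for 4 members and higher in replicate 2 for 6, and the −log10 q, which grows with depth, was higher in replicate 1 for 7. The log2 ratio of replicate 1 to replicate 2 stayed within 0.5 of zero for all 10, with extremes of -0.45 at CNS3 and 0.31 at CNS1. Across the 65721 regions matched one to one, that ratio had a median of 0.06 and an SD of 0.23. Taken from zero, not from that median, the ratio was larger than that SD at 3 members: CNS1, CNS3 and the weaker region inside Cacna1f (-0.29). The share of all matched regions beyond that limit is not given, so this count has no background. The order of CNS1 and CNS3 was the same in both libraries.

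**Figure D3:**
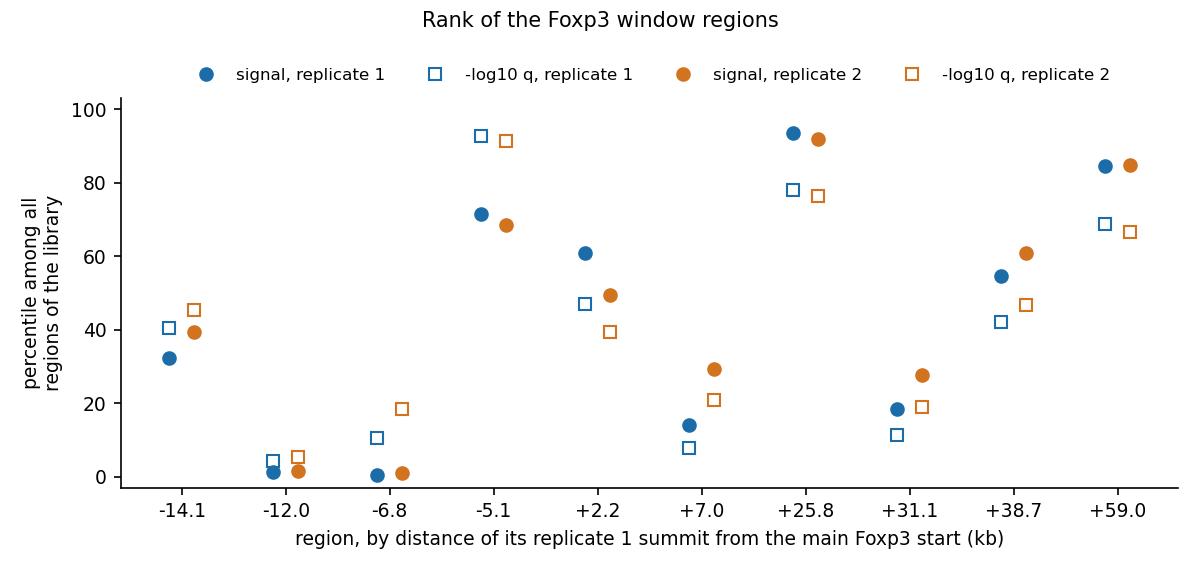
Percentile of each region of the window among all regions of its library, by signal (filled circles) and by −log10 q (open squares), for replicate 1 (blue) and replicate 2 (orange), in order along the chromosome. CNS1 (2.2 kb) lies near the middle, CNS3 (7.0 kb) under the 30th percentile by both measures, and the region at -5.1 kb is above the 90th percentile by −log10 q.

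With 10 shared regions, or 8.22 per 100 kb, the Foxp3 window stood at the 76.8th percentile of windows drawn in the same way around all protein-coding genes, whose median was 5.00 per 100 kb. Chromosome X was sparse, with a median of 1.08, and among its 948 genes Foxp3 stood at the 94.7th percentile. These are descriptions of a chosen gene, with no test. Of the 10 regions, 5 had a summit within 1000 bp of a protein-coding start, those of neighbouring genes included. The share of all shared regions within that distance is not given here, so the count cannot be called high or low. The rank among all genes went from the 56.6th percentile with the 50000 strongest regions to the 92.9th with flanks of 20 kb, and on chromosome X from the 88.9th to the 98.9th. Windows of neighbouring genes share regions, so they are not independent.

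**Figure D4:**
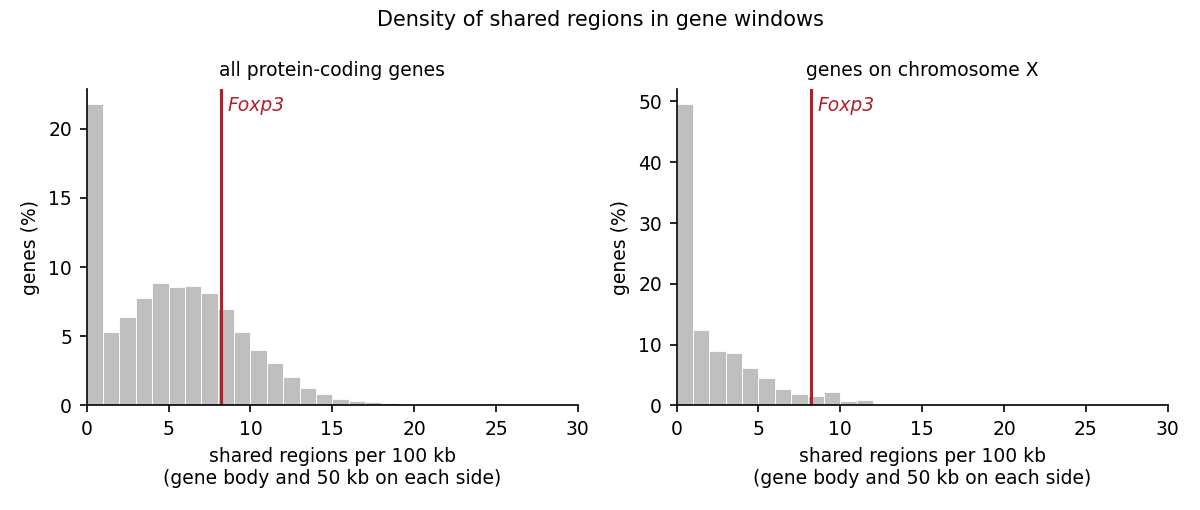
Share of genes (%) by the number of shared regions per 100 kb of gene body and 50 kb flanks, for all protein-coding genes (left) and for those on chromosome X (right). The red line marks Foxp3 at 8.22, above the median of 5.00 of all genes and in the tail of chromosome X.

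Among the other FOXP genes, Foxp1, a factor of naive T cells, likewise had a region at another annotated start (6.61 ± 0.0275, SD, n = 2) and none at its Select start. Foxp2, known mainly from the brain, had one at its Select start (7.74 ± 0.0214, SD, n = 2), as did Foxp4 (7.88 ± 0.610, SD, n = 2). Away from promoters, the gene body and 50 kb flanks held 5 shared regions for Foxp3, 72 for Foxp1, 7 for Foxp2 and 13 for Foxp4. These counts are not scaled to the length of each gene, so they do not rank the genes by density. Of the 5 for Foxp3, only the CNS1 region lies inside the gene. The CNS3 region is not among them, because its summit lies near annotated Foxp3 starts.

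Promoters of the listed genes whose products act on Foxp3 were nearly all accessible. The list was drawn up with earlier results of these data known, so its counts are descriptions only. Of 36 listed regulators (RUNX, NFAT, SMAD, STAT5, FOXO, NF-kB, CREB, ETS and NR4A factors, and DNA methylation enzymes, among others), 35 had a region in both libraries at an annotated start, against 62.8% of all genes, and 33 at the Select start, against 62.3%. The strongest, each at the annotated start with the highest signal, were Runx3, whose family binds CNS2 with Cbfb, at 16.6 ± 1.10, Smad2 of the TGF-beta pathway at 14.1 ± 0.522 and Rela of NF-kB at 13.1 ± 1.14 (SD, n = 2). Dnmt1, a DNA methylation enzyme, had the same rounded mean as Rela, at 13.1 ± 0.654 (SD, n = 2). The Runx3 value came from a start other than its Select start, where the signal was lower in both libraries (7.07 in replicate 2). The exception among the regulators was Foxo3, which counted when any base of a region within 1000 bp was enough. That rule gave 36 of 36, against 65.0% of all genes. Stat5a and Gata3 had a region at another start but not at the Select start. With the 50000 strongest regions, 30 of the 36 remained, against 56.9% of all genes.

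Of 30 genes of the regulatory T-cell signature, 28 had a promoter region in both libraries at an annotated start, against 62.8% of all genes, and 24 at the Select start, against 62.3%. This list, too, was drawn up with earlier results of these data known. Many of these genes are also used by other activated T cells. Entpd1, which encodes the ectonucleotidase CD39, had 17.9 ± 0.420, the growth factor gene Areg 14.3 ± 0.0333 and the receptor gene Gpr83 14.1 ± 0.695 (SD, n = 2), each at the annotated start with the highest signal. At its Select start Entpd1 had a signal of 7.62 in replicate 1 and 6.25 in replicate 2. Il2ra, the high-affinity interleukin 2 receptor chain, had 6.51 ± 0.265 and Ctla4, an inhibitory receptor, 5.25 ± 0.250 (SD, n = 2). Itgae and Klrg1, genes of an integrin chain and a lectin-like receptor, had none. Ikzf2, Tnfrsf9, Ccr6 and Il1rl1 were called at another start and not in both libraries at the Select start, as Foxp3 was. The median promoter signal was 6.91 in this list and 8.15 in the regulator list, over the genes called, against 11.2 over all genes called. Il2ra and Ctla4, and the genes named for their other start, were picked after their values were seen.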

How the data were processed

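Open chromatin was measured by ATAC-seq in 2 libraries of 1 group. Each deposited file lists narrowPeak regions on mm10 called on that library alone, per the labels and the deposited notes. The aligner, the caller, its threshold and any shift of reads for the transposase are not given in the sources used here, and peak names contain words (ASTARR insert, masked, dedup) that no source explains. Whether the libraries are plain ATAC-seq libraries or inserts prepared for another assay is therefore not known, which bears on what the signal measures. The deposited signal value is a ratio, read as fold enrichment from its values. The authors' −log10 p and −log10 q and the score, which follows the −log10 q, are the caller's own for each library, with no scaling between libraries stated. Depth is unknown.

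Python 3.11.15 with pysam 0.24.0 was used. The 88 and 80 regions on sequences other than the autosomes, X and Y were left out. Regions overlapping by at least 1 bp were shared, and a merged region took the summit of the stronger library. Genes came from GENCODE mouse release 21 (21853 protein-coding genes) and RefSeq Select starts and sequence from GRCm38.p6, which has the mm10 coordinates. No region passed a chromosome's end. Consensus sequences of 13 factor groups were searched on both strands in 200 bp around each merged summit. Matches of different groups may overlap.

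With 1 group no test was possible, so all results are descriptions. Named were Foxp3, the genes of the window, the FOXP family and, from each list, the 3 strongest promoters and every member without one. The members, lists and element ranges were chosen with earlier results of these data known. Alternatives changed the threshold, overlap, flank, promoter distance, element ranges and library. The code for overlaps, promoters and consensus matches was tested on simulated data.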

Additional observations from a re-analysis of the deposited data

How the results depend on the processing

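No paired analysis was possible because the libraries form 1 group. Leaving out either library changed neither the 10 regions of the window nor the 3 elements with a region (upstream enhancer, CNS1 and CNS3). The first of these lies inside an exon of Ppp1r3f. The signal of the strongest region at any Foxp3 start went from 8.93 to 9.65. The 10 regions became 5 with the 50000 strongest regions of each library and 16 with flanks of 100 kb. The signal of 9.29 became 3.91 with a promoter distance of 500 bp, since the region near -5 kb then dropped out and that at CNS3 took its place. As a ratio to the library's median it was 1.43. At the Select start alone, an alternative chosen after seeing the data, there was no region and so no value. The percentile of the window among all genes, 76.8, was 68.0 with −log10 q of at least 5, 56.6 with the 50000 strongest regions, 73.4 with the stricter overlap, 92.9 with 20 kb flanks, 72.4 with 100 kb flanks and from 68.1 to 70.9 with 1 library alone. The 17 consensus matches by region fell to 7 in windows of 100 bp. Counts for both gene lists stayed within 1.5 times. With a promoter distance of 500 bp, 21 of the 30 signature genes and 33 of the 36 regulators remained, against 58.0% of all genes. With the 50000 strongest regions, 22 of the 30 and 30 of the 36 remained, against 56.9%. Depth is unknown, so the absence of a region at the promoter, CNS0 or CNS2 holds only for these lists and their threshold.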

Other observations

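Over the 13 consensus groups, the 10 summits of the window held 17 matches of a group to a region. GATA letters were at 5 of the 10 summits, against 12.8% of shared regions, SMAD letters at 4 against 18.1% and NFAT letters at 3 against 10.4%. AP-1, ETS, RUNX, STAT and E-box letters were at 1 each, against 20.6%, 12.8%, 23.9%, 8.13% and 25.7%. CRE, NF-kB, forkhead, CTCF and KLF letters were at 0, against 1.08%, 5.92%, 2.12%, 5.40% and 4.71%. The letters not given above were TGTTTAC for forkhead, CAGGTG or CAGCTG for the E-box, and GGGCGTGG or, for KLF as well, GGGTGTGG, on both strands. NF-kB and CTCF are given by name. The weak region near -6.8 kb held 3 of the GATA matches. These counts are descriptions of 10 regions on 1 chromosome, and no test was made.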
